A study of Mus musculus with 6 samples.

Results

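The restriction factors examined here were 10 genes whose products act inside or on the surface of a cell against viruses: Rsad2, Bst2, Samhd1, Apobec3, Ifitm1, Ifitm2, Ifitm3, Mx1, Mx2 and Eif2ak2. They were chosen by gene name, and each name matched 1 of the 57010 rows of the count table. Expression was measured by RNA-seq in 6 libraries of primary cardiomyocytes (NMCMs) from newborn C57BL/6 mice, isolated by digestion of the hearts and separation from adherent cells, and all 6 came from cells under hypoxia (HO). The HO + Vehicle group had 3 libraries (V1, V2 and V3), and the HO + β-SITO group had 3 (T4, T5 and T6), whose cells also received β-sitosterol, a plant sterol. None of the 6 samples of the series was normoxic, so these levels have no normoxic baseline here. The sources used here do not say which of the study's doses of β-SITO and times of exposure applied to these libraries. They also do not say whether the 3 libraries of a group came from separate cultures. The p-values therefore measure the spread between these libraries, which may be technical.

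Restriction factors are held at a low level in most resting cells and are induced by interferons. Type I interferon binds the IFNAR1 and IFNAR2 receptor chains, and the kinases JAK1 and TYK2 activate a transcription complex called ISGF3, which holds STAT2 and IRF9 and binds interferon-stimulated response elements (ISREs) in DNA. The induced proteins act at different steps of infection. IFITM proteins hinder fusion of viral and cell membranes, SAMHD1 depletes deoxynucleotides, APOBEC3 deaminates retroviral DNA, MX proteins are dynamin-like GTPases that block viral nucleocapsids, viperin (Rsad2) makes a chain-terminating nucleotide, PKR (Eif2ak2) halts translation, and tetherin (Bst2) holds budding virions at the cell surface. In C57BL/6 mice, as in most laboratory strains, Mx1 and Mx2 carry mutations that disrupt their proteins.

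Start-site sequences are shown for the gene with 2 overlapping ISRE matches (Bst2), for the gene that fell most among those with an entry (Rsad2) and for the 3 neighbouring Ifitm genes, whose levels changed by different amounts. RefSeq entries on GRCm38.p6, covering 250 bases before and 50 after a start site, matched 8 of the 10 genes by symbol, with a pair of entries for Apobec3 and none for Mx1 or Mx2. The ISRE core searched was GAAANNGAAA on either strand, and its matches are in capitals (in Rsad2 the match lies on the opposite strand, so the capitals are its reverse complement). Each sequence reads along the gene's own strand.
Rsad2 (chr12:26456403-26456702, minus strand): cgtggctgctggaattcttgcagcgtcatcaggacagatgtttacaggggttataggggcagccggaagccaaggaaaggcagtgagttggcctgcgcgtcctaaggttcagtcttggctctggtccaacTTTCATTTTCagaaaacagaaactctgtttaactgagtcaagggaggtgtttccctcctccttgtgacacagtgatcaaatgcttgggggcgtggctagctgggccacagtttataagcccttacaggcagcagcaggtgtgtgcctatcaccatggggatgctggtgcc
Bst2 (chr8:71537423-71537722, minus strand): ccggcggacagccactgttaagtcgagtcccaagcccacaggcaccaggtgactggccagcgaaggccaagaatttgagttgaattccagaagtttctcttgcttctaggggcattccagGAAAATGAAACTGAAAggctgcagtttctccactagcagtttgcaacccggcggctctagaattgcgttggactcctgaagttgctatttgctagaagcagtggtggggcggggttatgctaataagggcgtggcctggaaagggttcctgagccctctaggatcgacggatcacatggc
Ifitm3 (chr7:141010695-141010994, minus strand): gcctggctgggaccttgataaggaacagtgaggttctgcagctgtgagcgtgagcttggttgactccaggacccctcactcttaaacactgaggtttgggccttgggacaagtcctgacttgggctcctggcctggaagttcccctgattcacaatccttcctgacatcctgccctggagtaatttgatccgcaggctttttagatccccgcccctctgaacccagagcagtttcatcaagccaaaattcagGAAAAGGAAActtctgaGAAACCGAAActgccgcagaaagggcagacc
Ifitm2 (chr7:140955912-140956211, minus strand): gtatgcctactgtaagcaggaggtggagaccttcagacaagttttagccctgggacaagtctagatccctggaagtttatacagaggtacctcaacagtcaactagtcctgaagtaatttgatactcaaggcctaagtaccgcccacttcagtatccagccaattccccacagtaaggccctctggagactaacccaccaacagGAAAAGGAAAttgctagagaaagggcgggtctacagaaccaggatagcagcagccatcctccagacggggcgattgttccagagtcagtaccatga
Ifitm1 (chr7:140967826-140968125, plus strand): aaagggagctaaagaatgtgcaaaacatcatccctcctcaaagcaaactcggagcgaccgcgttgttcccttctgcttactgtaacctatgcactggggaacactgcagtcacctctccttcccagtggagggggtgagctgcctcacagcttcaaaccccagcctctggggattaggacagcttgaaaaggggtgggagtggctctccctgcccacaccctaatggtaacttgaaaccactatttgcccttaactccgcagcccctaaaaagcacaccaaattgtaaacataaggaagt

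The ISRE core was found for 6 of the 8 genes with an entry, and for 3.99% of the 27025 genes in the whole RefSeq table. By entry, 6 of 9 held it, against 3.44% of 32851. Counting the first transcribed base as 0, Bst2 had 2 matches that overlapped (-130 to -121 and -124 to -115), and Ifitm3 had 2 downstream of its start (2 to 11 and 19 to 28). Eif2ak2 also had its match after the start (18 to 27). Ifitm2 (-46 to -37), Rsad2 (-120 to -111, on the opposite strand) and the upstream start of Apobec3 (-140 to -131, on the opposite strand) had 1 match each. Samhd1, Ifitm1 and the downstream start of Apobec3 had none in this window, which says only that these letters are absent from it. The GAS core TTCNNNGAA, a motif known from interferon-gamma signalling, reads the same on either strand and was found for Samhd1 (-235 to -227), Eif2ak2 (-178 to -170), Bst2 (-136 to -128) and Ifitm3 (13 to 21). In Bst2 and Ifitm3 the GAS match overlapped an ISRE match. These were 4 of the 8 genes, where 9.55% of all genes in the table held the GAS core. A match is a description of the sequence, and binding was not measured.

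**Figure D1:**
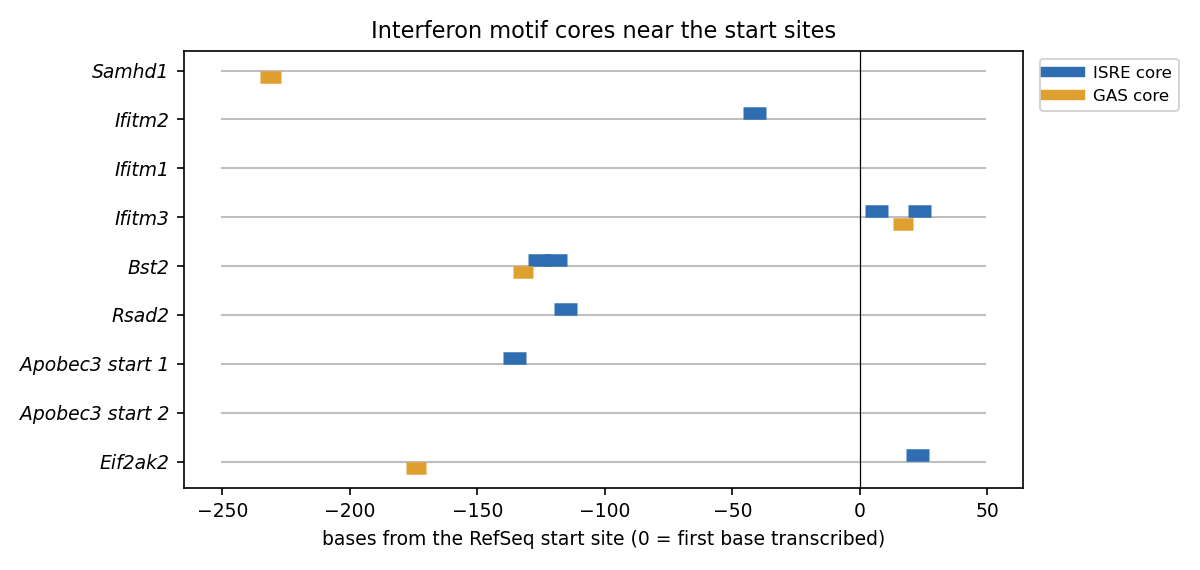
Position of ISRE core (blue) and GAS core (orange) matches in the RefSeq entries of 8 restriction factor genes, as bases from the start site. Of the 9 entries, 6 hold an ISRE core and 4 a GAS core, and Ifitm1 and the downstream start of Apobec3 hold neither.

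The libraries held 16694734 to 18460522 counts, and 14799 genes had enough counts to be tested. The library names of the HO + β-SITO group alone carry an added letter, so a separate preparation of that group, if there was one, and the treatment cannot be told apart. All 10 cardiomyocyte markers checked (among them Tnnt2, Myh6 and Actn2) were detected, with summed levels between 6097 and 7067 CPM (counts scaled to library size after TMM normalization) under vehicle and between 5523 and 9429.6 CPM under β-SITO. Of these 10, 3 (Myl7, Myh7 and Nppa) were called higher under β-SITO and 0 lower. A call meant an adjusted p under 0.05 and a change over 2-fold, and of all tested genes 10.1% were called lower and 12.8% higher. The 8 fibroblast markers, which include highly transcribed collagen genes, summed to more reads in every library, 29833 to 31113 CPM and 44413 to 45501 CPM, with 0 of the 8 called in either direction. At an adjusted p under 0.05 with any size of change, 5 of the 8 were higher and 2 lower, against 33.0% and 33.8% of all tested genes. Markers of other heart cells also moved with the groups. Of 9 macrophage markers, 6 were called higher and 1 (Fcgr1) lower under β-SITO, and their sum went from 1201 to 1322 CPM to 2617 to 3214 CPM. All 6 endothelial markers were called higher, with sums of 171 to 197 CPM against 708 to 741 CPM. Of 4 smooth muscle markers, 2 were called higher, with sums of 547 to 589 CPM against 1062 to 1243 CPM. Of the 5 neutrophil markers only Csf3r had enough counts to be tested, and it was lower, while Ly6g was at 0 in every library. None of the 6 lymphocyte and plasmacytoid markers was tested, and Cd3e, Cd3g and Siglech were at 0 in every library. These libraries are bulk RNA, in which fewer cells of a type and less RNA per cell cannot be told apart, and the part of these markers in the results on restriction factors was not tested.

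All 10 restriction factors fell under β-SITO, from 2.78-fold for Ifitm2 to 609-fold for Mx1. A gene was called when its adjusted p was under 0.05 and its change more than 2-fold (edgeR's quasi-likelihood test, adjusted by Benjamini-Hochberg over the 14799 genes), and by this rule 10 of 10 genes were called lower and 0 higher, where 10.1% of all tested genes were called lower and 12.8% higher. The median log2 fold change of the 10 genes was -3.12, against -0.01 over all tested genes. For each of the 10, every HO + β-SITO library was below every HO + Vehicle library, which also held for 35.8% of all tested genes. The 10 genes together took 0.477%, 0.541% and 0.502% of the counts in V1, V2 and V3, and 0.0712%, 0.0638% and 0.0639% in T4, T5 and T6. The mean share was thus 7.64-fold lower, and no library of one group reached the range of the other (two-sided exact permutation test, p = 0.1, the smallest that 3 libraries against 3 allow).

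**Figure D2:**
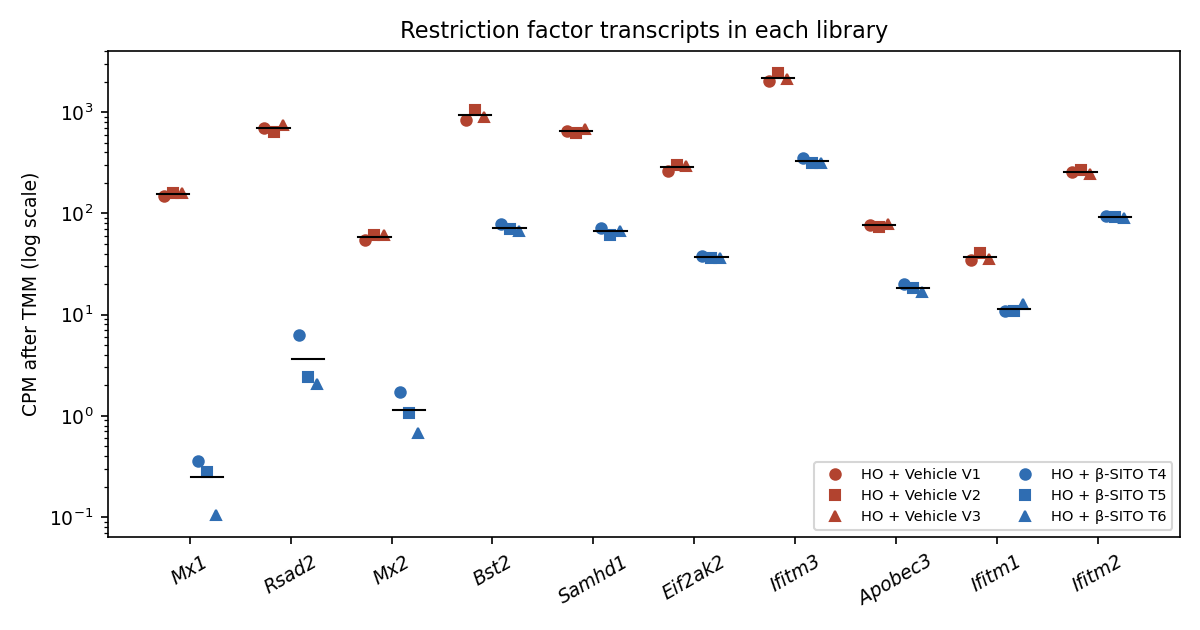
CPM after TMM normalization (log scale) of the 10 restriction factors in each library, red for HO + Vehicle and blue for HO + β-SITO, with the group mean as a line and the genes ordered by the size of the decrease. The groups do not overlap for any gene, and the gap is widest for Mx1, where the lowest HO + Vehicle library is 415-fold above the highest HO + β-SITO library.

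The largest decrease was that of Mx1, an interferon-induced GTPase (ENSMUSG00000000386, chr16:97248235-97264107 in the deposited table, on GRCm39). Its raw counts were 2361, 2526 and 2562 in V1, V2 and V3 and 7, 5 and 2 in T4, T5 and T6. The gene was thus well expressed under vehicle and barely counted under β-SITO. Its log2 fold change was -9.25 (SE 0.140, adjusted p = 7.69e-17), the 26th largest decrease of the 14799 genes tested. Because only 14 counts remained over the 3 HO + β-SITO libraries, against 7449, the size is imprecise. The exact 95% interval of the ratio of summed counts, adjusted for library size, ran from 373-fold to 1147-fold lower, which covers counting error only. In log2, the 95% interval from the SE ran from -9.55 to -8.95, which is narrower than that of counting error alone. The SE of Mx1 is therefore too small. The adjusted p of Mx1 rests on the same statistic as this SE, and over the other fits run it was at most 2.62e-11 (limma-voom, another test). Mx2, its paralog 72.4 kb away on the opposite strand (chr16:97336508-97362100), had 858, 980 and 984 counts against 33, 19 and 13. Mx2 had the lower CPM of the pair under vehicle and the higher CPM under β-SITO. Its log2 fold change was -5.67 (SE 0.157, adjusted p = 5.59e-14). Here too the 95% interval from the SE (-6.0 to -5.33) was no wider than that of counting error alone (40.0-fold to 66.5-fold lower).

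The order of the 2 Mx genes was therefore reversed between the groups. The log2 ratio of Mx1 to Mx2 in counts per kilobase, with 0.5 counts added, was 1.39, 1.30 and 1.31 in V1, V2 and V3 and -2.23, -1.89 and -2.50 in T4, T5 and T6. This ratio is taken within a library and does not depend on normalization. The difference of -3.54 was larger than the spread within either group (SD 0.0507 and 0.304, n = 3; two-sided exact permutation test, p = 0.1, the smallest possible). Reads that could fit either gene are few, since 41 of the 100-base windows in their annotated transcripts occur in both, 0.929% of those of Mx1 and 1.13% of those of Mx2.

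Rsad2, which encodes viperin, had the second largest decrease of the 10 (ENSMUSG00000020641, chr12:26492745-26506451). It had 695, 638 and 748 CPM in V1, V2 and V3 and 6.32, 2.42 and 2.08 CPM in T4, T5 and T6. T4 was 2.81-fold above the mean of T5 and T6, and far below every vehicle library. The log2 fold change was -7.57 (SE 0.213, adjusted p = 6.94e-14), and -8.27 without T4. Cmpk2, a mitochondrial nucleotide kinase that supplies the substrate of viperin, lies 12.8 kb from Rsad2 on the opposite strand with no gene between them. It had 268, 259 and 282 CPM against 3.49, 1.80 and 2.03 CPM, a log2 fold change of -6.77 (SE 0.129, adjusted p = 7.17e-16). The SE of Cmpk2 may be too small as well, since its HO + β-SITO libraries had an SD of 0.92 CPM around a mean of 2.44 CPM. The neighbours thus lost most of their transcripts together, and T4 was the highest HO + β-SITO library for both. Ciao1, which helps to load the iron-sulfur cluster of viperin, had a log2 fold change of -0.13 and did not pass the test (adjusted p = 0.0945).

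Bst2, the gene of tetherin (ENSMUSG00000046718, chr8:71986899-71990100), had the largest decrease after Mx1, Rsad2 and Mx2. It had 831, 1058 and 893 CPM in the HO + Vehicle libraries and 78.2, 69.3 and 66.2 CPM in the HO + β-SITO libraries. V2 was the highest of the vehicle libraries, and the groups stayed 10.6-fold apart at their closest. The log2 fold change was -3.70 (SE 0.0949, adjusted p = 2.26e-14).

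**Figure D3:**
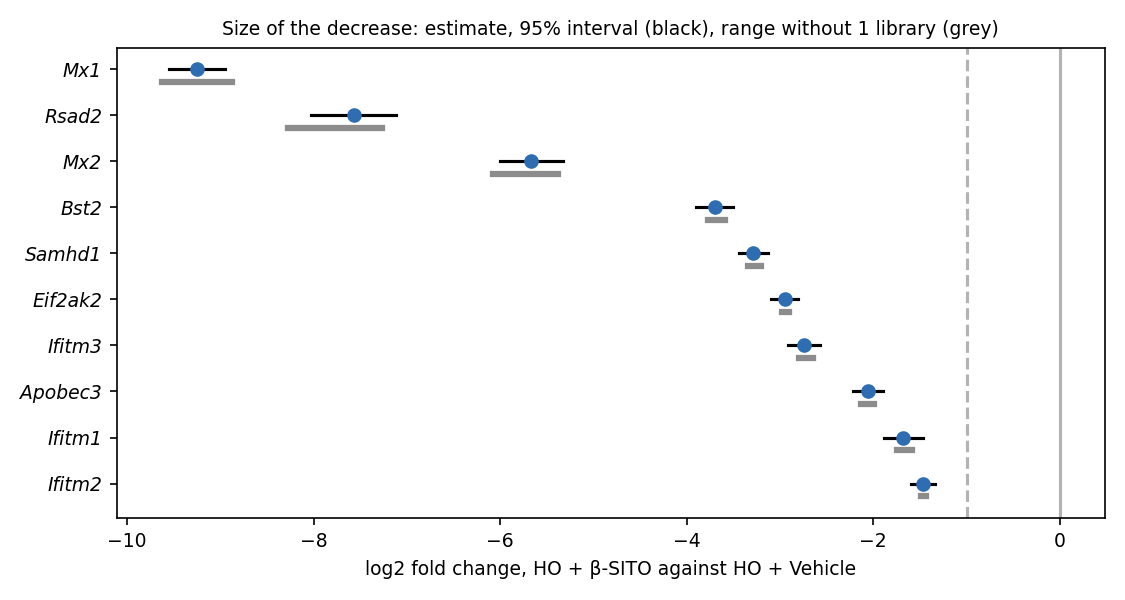
Log2 fold change of each restriction factor (HO + β-SITO against HO + Vehicle, blue point) with its 95% interval in black and the range over the 6 fits that each left out 1 library in grey. All 10 intervals lie below -1 (dashed line, 2-fold), from Mx1 at -9.25 to Ifitm2 at -1.47, and the grey range of Rsad2 reaches -8.27. The black intervals of Mx1 and Mx2 are no wider than counting error alone and are too narrow. For Rsad2, Mx1 and Mx2 the grey range runs past the lower end of the black interval, so that of Rsad2 may be too narrow as well.

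The Ifitm genes encode small membrane proteins of the entry step and form a cluster on chromosome 7. All 3 fell, by different amounts. Ifitm3 (ENSMUSG00000025492, chr7:140589499-140590683) carried the most reads of the 10 genes in every library, with 2019.8, 2441 and 2129 CPM in V1, V2 and V3 and 354, 316 and 316 CPM in T4, T5 and T6. Its log2 fold change was -2.74 (SE 0.0807, adjusted p = 1.21e-13). Even after this decrease, more reads of Ifitm3 remained than the HO + Vehicle libraries held of Eif2ak2, Ifitm2, Mx1, Apobec3, Mx2 or Ifitm1. Ifitm2 (chr7:140534750-140535900) had 257, 270.3 and 242 CPM against 94.4, 92.4 and 90.3 CPM, the smallest decrease of the 10 (log2 fold change -1.47, SE 0.0604, adjusted p = 7.17e-12). Ifitm1 (chr7:140547134-140549738) had 34.4, 40.8 and 35.0 CPM against 10.9, 10.8 and 12.7 CPM (log2 fold change -1.68, SE 0.0966, adjusted p = 4.67e-10). It was the only one of the 10 whose highest HO + β-SITO library was not T4. The 95% intervals of Ifitm1 (-1.88 to -1.47) and Ifitm2 (-1.60 to -1.34) overlapped, and that of Ifitm3 (-2.91 to -2.57) lay apart from both.

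As a share of the 3 genes' counts per kilobase within a library, Ifitm3 made up 87.5%, 88.9% and 88.7% in V1, V2 and V3 and 77.2%, 75.5% and 75.7% in T4, T5 and T6. Ifitm2 went from 10.2% to 11.5% under vehicle to 21.3% to 22.9% under β-SITO. Ifitm1 stayed the least abundant, at 0.902% to 0.923% and 1.47% to 1.89%. For each share the groups did not overlap (two-sided exact permutation test, p = 0.1 for each, the smallest possible). Counts of Ifitm2 are less certain than those of its neighbours, since 34.9% of its 100-base windows also occur in 3 other annotated genes, which held 0 counts in the table. Ifitm1 and Ifitm3 had no such window. Of the other family members, Ifitm6 (log2 fold change -0.20, adjusted p = 0.535) and Ifitm10 (0.31, adjusted p = 0.261) did not pass the test, and Ifitm5 and Ifitm7 had too few counts to be tested.

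**Figure D4:**
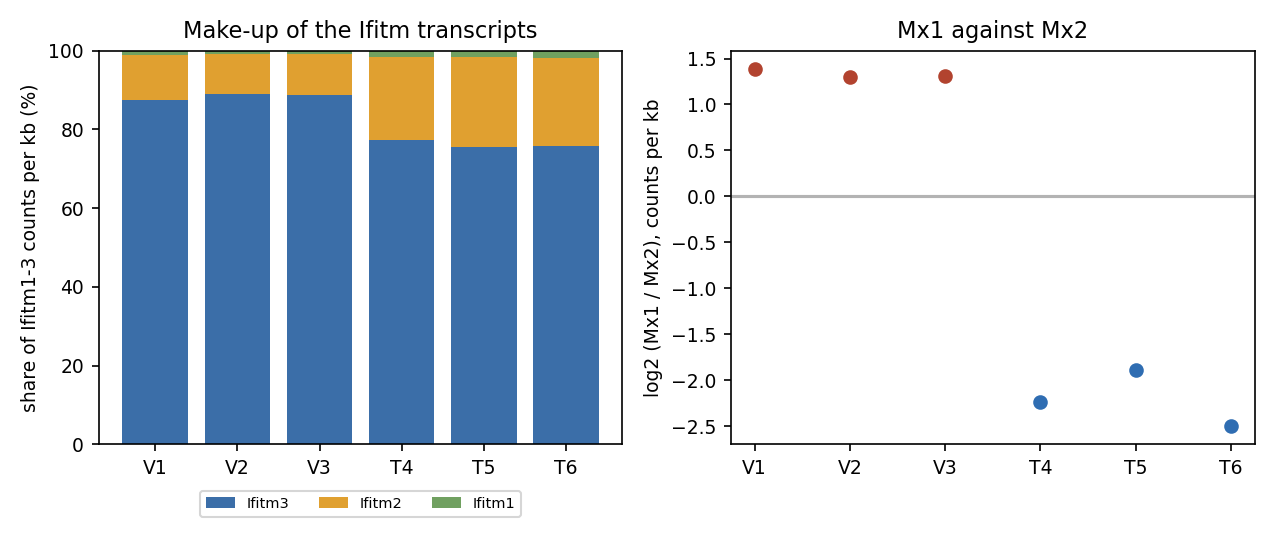
Left, the share of Ifitm3, Ifitm2 and Ifitm1 in their summed counts per kilobase in each library, where the Ifitm2 share is 10.2% to 11.5% in V1 to V3 and 21.3% to 22.9% in T4 to T6. Right, the log2 ratio of Mx1 to Mx2 in counts per kilobase, red for HO + Vehicle and blue for HO + β-SITO, which lies above 0 in the 3 vehicle libraries and below 0 in the 3 β-SITO libraries.

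The 2 genes that act on retroviral reverse transcription also fell. Samhd1, a deoxynucleotide triphosphohydrolase (ENSMUSG00000027639, chr2:156939453-156977185), had 651, 620.4 and 675 CPM in V1, V2 and V3 and 71.6, 61.2 and 66.8 CPM in T4, T5 and T6. About 10.3% of the vehicle level remained, and the log2 fold change was -3.29 (SE 0.0716, adjusted p = 3.30e-15). Genes that work on the same deoxynucleotide pool, or that phosphorylate SAMHD1, went in different directions. Rrm1 (log2 fold change 0.30) and Rrm2 (0.57) of ribonucleotide reductase and the cyclin and kinase genes Ccna2 (0.83) and Cdk2 (0.25) passed an adjusted p under 0.05 as higher without reaching 2-fold. Of all tested genes, 33.0% passed it as higher and 33.8% as lower, so changes that passed by p alone were common. Dck, which salvages deoxynucleosides, was lower (-0.38), and Rrm2b (0.03, adjusted p = 0.779) did not pass.

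Apobec3, a cytidine deaminase (ENSMUSG00000009585, chr15:79775860-79800107), had 1225, 1175 and 1274 raw counts in V1, V2 and V3 and 389, 327 and 322 in T4, T5 and T6. The libraries of each group lay close together, and 24.0% of the vehicle level remained. Its log2 fold change was -2.06 (SE 0.0759, adjusted p = 1.90e-12). Its relative Apobec1, which edits RNA, had a log2 fold change of -0.72 (adjusted p = 7.49e-07), and the muscle gene Apobec2 of -0.25 (adjusted p = 0.0871). The row of Apobec3 overlaps Cbx7 on the opposite strand (195 counts in the HO + Vehicle group and 410 in the HO + β-SITO group) and the noncoding D730005E14Rik on the same strand (74 and 10 counts). Whether reads were counted by strand is not given in the sources used here, and both rows held fewer counts than Apobec3 itself. Of the 100-base windows of Apobec3, 4.66% also occur in 6 other annotated genes, Cbx7 and D730005E14Rik among them. Together these genes held 15863 counts over all libraries, and the part of shared reads in the counts of Apobec3 was not tested.

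Eif2ak2 encodes PKR, the kinase that binds double-stranded RNA and phosphorylates the translation factor eIF2α (ENSMUSG00000024079, chr17:79159993-79190002). It had 264, 298 and 295 CPM in V1, V2 and V3 and 37.7, 36.6 and 36.4 CPM in T4, T5 and T6, with an SD of only 0.718 CPM among the latter (n = 3). The log2 fold change was -2.95 (SE 0.0672, adjusted p = 5.32e-15). The other eIF2α kinases did not share a decrease of this size. Eif2ak1, the heme-regulated kinase, was lower by less than 2-fold (-0.39), Eif2ak3, the endoplasmic reticulum kinase PERK, was slightly higher (0.37), and Eif2ak4, the amino acid sensor GCN2, did not pass (0.13, adjusted p = 0.284). Whether these changes differ from that of Eif2ak2 was not tested in a model of its own.

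Around PKR, 12 genes of partners and of the eIF2α pathway were tested. Of these, 2 were called lower and 0 higher, 7 more were lower and 2 higher at an adjusted p under 0.05 without reaching 2-fold, and the median log2 fold change was -0.59. For all tested genes, 10.1% were called lower, and at that adjusted p with any size of change 33.8% were lower and 33.0% higher. Adar, whose product edits double-stranded RNA and so limits PKR activation, fell most, from 246, 219.5 and 231 CPM to 41.0, 39.0 and 37.6 CPM (log2 fold change -2.57, SE 0.0659, adjusted p = 2.28e-14). Ddit3, the stress-induced factor CHOP, fell as well (-1.58, adjusted p = 5.97e-11). Smaller decreases were found for the substrate Eif2s1 (-0.88), the phosphatase subunit Ppp1r15a (-0.83), the effector Atf4 (-0.76) and the PKR inhibitors Dnajc3 (-0.68) and Tarbp2 (-0.50). The PKR activator Prkra was higher (0.35). Phosphorylation of eIF2α was not measured.

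The 10 genes differed widely in level as well as in change. In CPM per kilobase of exon, Ifitm3 was highest in the HO + Vehicle group (mean 3239.8), the 3rd of 14637 tested genes with a known length, followed by Bst2 (1027), Ifitm2 (392), Rsad2 (160), Samhd1 (70.9), Eif2ak2 (55.9), Mx1 (41.1), Ifitm1 (33.6), Mx2 (16.3) and Apobec3 (8.11). In that order the library ranges of neighbours did not overlap. In the HO + β-SITO group the order by mean was Ifitm3 (485), Ifitm2 (141), Bst2 (78.9), Ifitm1 (10.5), Samhd1 (7.27), Eif2ak2 (7.22), Apobec3 (1.94), Rsad2 (0.832), Mx2 (0.317) and Mx1 (0.0656). Here Samhd1 and Eif2ak2 overlapped, and the other neighbours did not. Rsad2 went from 295th to 12220th of the ranked genes and Mx1 from 1289th to 14435th, whereas Ifitm2 went from 96th to 262nd. The annotated exons of Samhd1 (9.15 kb) and Apobec3 (9.45 kb) are together much longer than the median of their protein-coding transcripts (2.64 and 1.84 kb). With that median length instead, Samhd1 (246 under vehicle) was above Rsad2 (183), Mx1 (85.9) above Eif2ak2 (66.2) and Apobec3 (41.6) above Mx2 (24.4), and under β-SITO Samhd1 was 4th and Apobec3 6th of the 10.

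Within the HO + β-SITO group, T4 had the highest level of 9 of the 10 genes, and it was the highest of the 3 libraries for 36.9% of all tested genes. The ratio of T4 to the mean of T5 and T6 was 2.81 for Rsad2, 1.94 for Mx2 and 1.87 for Mx1, and between 0.927 and 1.15 for the other 7 genes. T4 also had the highest macrophage marker sum of the group (3214 CPM, against 2632 and 2617 CPM) and the lowest cardiomyocyte marker sum (5523 CPM, against 9283 and 9429.6 CPM). The part of these differences in the levels of Rsad2, Mx1 and Mx2 was not tested. In the HO + Vehicle group, V2 was highest for 6 of the 10 genes, V3 for 4 and V1 for 0, against 32.0%, 31.1% and 36.9% of all tested genes. Without T4, all 10 genes were still called lower, with log2 fold changes of -8.27 for Rsad2, -9.63 for Mx1 and -6.08 for Mx2.

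Genes that carry the interferon signal to these factors were lower too. Stat2 fell from 436, 402 and 417 CPM to 43.2, 36.5 and 36.6 CPM in the order of the libraries above (log2 fold change -3.43, SE 0.0755, adjusted p = 3.58e-15). It is itself induced by interferon, and its 2 groups of libraries lay far apart. Its partner Irf9 (-1.67, adjusted p = 1.36e-11) and the receptor chain Ifnar2 (-1.69, adjusted p = 2.20e-12) were called lower. The receptor chain Ifnar1 (-0.79) and the kinases Jak1 (-0.78) and Tyk2 (-0.84) passed an adjusted p under 0.05 as lower without reaching 2-fold.

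Other antiviral effectors went mostly the same way, with exceptions. Of 13 such genes, 8 were called lower and 1 higher, and the median change was -1.27 (log2), where 10.1% of all tested genes were called lower and 12.8% higher. Isg20, an exonuclease, fell most, from 143, 177 and 163 CPM to 6.94, 6.46 and 6.82 CPM (-4.57, SE 0.0949, adjusted p = 1.81e-15). Ch25h, which makes the antiviral sterol 25-hydroxycholesterol, had a log2 fold change of -3.30, the helicase gene Mov10 of -2.88, the zinc finger antiviral gene Zc3hav1 of -1.72 and its cofactor Trim25 of -1.92, all called lower. Khnyn, a nuclease cofactor of the same protein, did not pass (-0.08, adjusted p = 0.289). The virion-incorporated factors Serinc5 and Serinc3 went the other way, with Serinc5 at 26.7, 26.0 and 29.6 CPM against 60.3, 55.9 and 55.3 CPM (log2 fold change 1.06, SE 0.0737, adjusted p = 4.65e-09) and Serinc3 higher by less than 2-fold (0.47).

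For partners and family relatives of the restriction factors, the counts of called genes stand beside 10.1% lower and 12.8% higher over all tested genes. Among 12 partners of viperin, SAMHD1 and the IFITM proteins, 1 (Cmpk2) was called lower and 0 higher, 4 more were lower and 5 higher at an adjusted p under 0.05, and the median was -0.05. Nedd4, a ubiquitin ligase that marks IFITM3 for degradation, was among those higher (0.66, adjusted p = 2.80e-07), and Zmpste24, a protease that works with IFITM proteins, among those lower (-0.41). Of 8 tested relatives by family, 0 were called lower and 1 higher. This was Dnm1, a dynamin related to the MX proteins that cuts endocytic vesicles, with 8.59, 6.83 and 6.88 CPM against 38.9, 37.8 and 36.7 CPM (log2 fold change 2.34, SE 0.0966, adjusted p = 7.62e-12). The ubiquitous dynamin Dnm2 did not pass (0.10, adjusted p = 0.185).

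**Figure D5:**
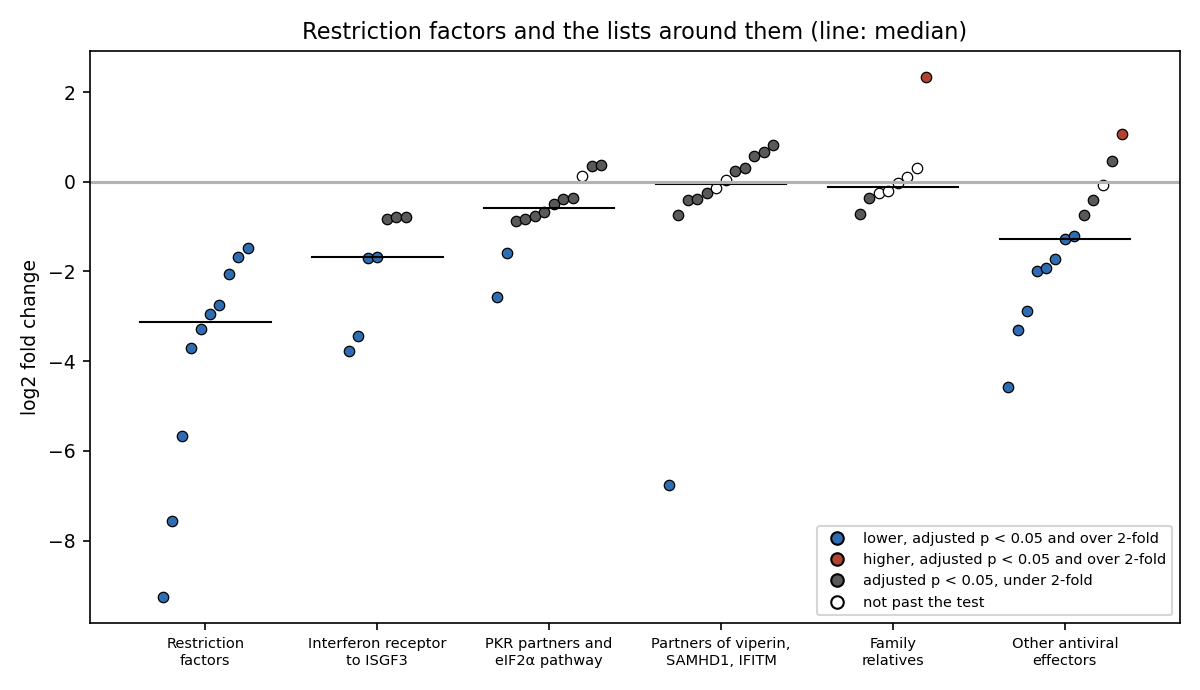
Log2 fold change (HO + β-SITO against HO + Vehicle) of every tested gene of the 10 restriction factors and 5 lists around them, with the list median as a line. Blue and red points were called lower and higher, grey points passed the adjusted p without 2-fold, and white points did not pass, and the medians run from -3.12 for the restriction factors to -0.05 for the partners.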

How the data were processed

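RNA-seq of 6 libraries was analysed. The authors deposited raw counts per gene from featureCounts, 1 column per library, without normalization. The submitters' processing notes also name FastQC, HISAT2 and GRCm39. Their versions, the strand setting and the treatment of reads with several matches are not given in the sources used here. The study's methods state DESeq2 for the comparison. The paper and the sample records name different library kits.

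Groups were taken from the sample titles. Counts were filtered with filterByExpr, normalized with TMM and tested with edgeR 4.0.16 (R 4.3.3) by the quasi-likelihood test, with group as the only term and Benjamini-Hochberg adjustment. CPM uses TMM-adjusted library sizes. Standard errors come from the F statistic. The BCV was 6.52%. Code was tested on simulated data. Alternatives used DESeq2 1.42.0, limma 3.58.1 (voom), glmTreat, other normalizations, other filters and each library left out. A second gene length was added after the data were seen.

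GENCODE vM21, of another build, gave exon lengths and transcripts by gene ID. RefSeq start-site sequences are on GRCm38.p6. Coordinates of genes are those of the deposited table. Intervals of fold changes come from the standard errors of the fit and are meant to include the spread between libraries. Those of Mx1 and Mx2, with few counts under β-SITO, were no wider than counting error alone. That of Rsad2 did not hold the value of the fit without T4. The interval of a ratio of summed counts covers counting error only.

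The 10 genes and the lists around them were chosen with earlier results of these data known. Named are all 10 genes, the called genes with the largest changes of each list and direct partners of the 10. Listed genes named with smaller changes were picked after their values were seen. Some listed genes are not reported here.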

Additional observations from a re-analysis of the deposited data

How the results depend on the processing

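All 10 restriction factors were called lower in each of 16 alternatives (3 other tests, from DESeq2, limma-voom and glmTreat, 3 normalizations, 2 count filters, a call by adjusted p alone, the removal of mitochondrially encoded genes, and 6 fits without 1 library), and none was called higher. The call by adjusted p alone rests on the main fit and could not lose a gene already called, so it adds no support. Leaving out 1 library moved Rsad2 most, to between -8.27 (without T4) and -7.27 (without T6), and Ifitm2 stayed between -1.49 and -1.43. With upper quartile normalization or library size only, the median of all tested genes was 0.14 in place of -0.01, and Ifitm2 was at -1.33 and Ifitm1 at -1.53 with the former. Of the listed pathway genes (7, 12, 12, 8 and 13 tested per list), 15 were called lower and 2 higher. Over all tested genes, 10.1% were called lower and 12.8% higher. Without the fold-change cutoff the counts of listed genes were 33 and 10, where 33.8% of all tested genes were lower and 33.0% higher. Against 2-fold with glmTreat they were 14 and 1, where 1177 and 1265 of all 14799 tested genes were called. The share of counts, the Ifitm3 share and the ratio of Mx1 to Mx2 kept their direction in every alternative run for them. Several of these could not have changed it. With groups that do not overlap, leaving out 1 library cannot reverse a direction. Another gene length shifts the log2 ratio of Mx1 to Mx2 equally in every library. At this depth the 14 counts of Mx1 and 65 of Mx2 in the HO + β-SITO group limit the precision of their decreases. No paired analysis was run. The groups share no replicate number, and the sources used here do not say whether libraries of the groups came from the same isolation of cells.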
